A study of Homo sapiens with 15 samples.

Results

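Genes for 8 surface proteins of immune-cell activation and costimulation were followed through all groups of an RNA-seq count table of UKE-1 cells: CD80, CD86, CD274, CD48, CD58, CD83, CD69 and CD44. They were chosen by gene symbol and are 8 of the 58735 genes in the table. UKE-1 is a human haematopoietic cell line derived from a myeloproliferative neoplasm that had progressed to leukaemia. The 15 libraries form 5 groups of 3, all from total RNA and labelled 3 h after treatment. The groups were cells given TNF-α, MCL and ruxolitinib together (called the combination here), cells given TNF-α and ruxolitinib, cells given TNF-α and MCL, cells given TNF-α alone, and untreated cells. Every drug group had been stimulated with TNF-α beforehand, so no library shows either drug without it. MCL is read as micheliolide, a sesquiterpene lactone, because the series title names that compound. Ruxolitinib inhibits the kinases JAK1 and JAK2. The sources used here do not give doses, the duration of stimulation, or whether replicate libraries were made from separate cultures. The p-values thus reflect only how far these libraries scatter, which can be technical.

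Costimulatory surface proteins set how strongly a T cell or natural killer cell responds to the cell it touches. CD80 and CD86 engage CD28 and CTLA4 on T cells, while CD274 (PD-L1) engages the inhibitory receptor PD-1. CD58 binds CD2 and CD48 binds CD244. CD83 marks mature dendritic cells, CD69 is an early activation antigen of leukocytes, and CD44 is the hyaluronan receptor of most haematopoietic cells. TNF-α signals largely through NF-κB, and JAK kinases pass cytokine and interferon signals to STAT proteins. The proteins themselves were not measured here, only their transcripts.

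The libraries held 15476399 to 18035604 counts. After genes with few counts were removed, 16146 genes were tested with edgeR's quasi-likelihood test in 1 model of all 5 groups, and a gene is said to have risen or fallen where its p, adjusted by Benjamini-Hochberg over those genes, was under 0.05. The spread between libraries was small, with a common biological coefficient of variation of 0.0404, so small changes passed. Levels are counts scaled to library size (CPM) after TMM scaling, and every mean ± SD below is over 3 libraries. Mitochondrial genes held 4.30% ± 0.14 of the counts in the combination, 5.49% ± 0.05 with ruxolitinib, 4.55% ± 0.22 with MCL, 5.12% ± 0.15 with TNF-α alone and 5.23% ± 0.11 in untreated cells. As a check of the labelled haematopoietic identity, 11 of 11 haematopoietic and myeloid markers averaged at least 1 CPM, and CD34 averaged 1249 CPM with TNF-α. Their summed level was 2433 to 2528 CPM in the combination, 3683 to 3696 with ruxolitinib, 3148 to 3186 with MCL, 3778 to 3810 with TNF-α alone and 3805 to 3826 in untreated cells. Of the markers of cells that usually carry these costimulatory proteins, 3 of 7 for dendritic cells and macrophages averaged at least 1 CPM (CLEC9A, CSF1R and ITGAX), against LAMP3 at 0.166 CPM and CCR7 at 0.187 CPM with TNF-α. The summed level of those 7 was 245.8 to 261.9 CPM in the combination, 242.6 to 246.6 with ruxolitinib, 260.1 to 263.4 with MCL, 280.5 to 289.8 with TNF-α alone and 344.5 to 355.2 in untreated cells. Of 5 B-cell markers 3 reached 1 CPM, with CD79A at 24.95 CPM with TNF-α and MS4A1 at 0 in every library. Of 7 T- and NK-cell markers 4 did, with NKG7 at 25.16 CPM with TNF-α. Of 6 stromal, epithelial and endothelial markers 2 did, with EPCAM at 0. The 2 were CDH5 at 205.6 CPM and KRT8 at 50.01 CPM with TNF-α. Markers of other lineages were thus not absent. The part of these marker shifts in the results below was not tested. In bulk RNA, fewer cells carrying a transcript and less transcript per cell cannot be told apart.

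Because TNF-α, interferons and JAK kinases act on transcription, the stretch of DNA before the gene starts gives context for the levels that follow. RefSeq promoter entries (GRCh38.p14) were found for 7 of the 8 genes, with more than 1 start for CD83 and CD86, and the 250 bases before each start were searched on both strands for 4 sets of letters. These were the NF-κB letters (GGG and CC with any 5 bases between), held by 54.43% of 35116 promoter windows of that length, the STAT (GAS) letters TTCNNNGAA, held by 6.567%, the AP-1 letters TGANTCA, held by 6.573%, and the interferon-response core (GAAA repeated after any 2 bases), held by 3.021%. No AP-1 letters were found in the members' windows. A match is a description of letters and not a bound site, and no match between different motifs overlapped in the windows printed. The sequences of CD274 and CD58 are given because both genes rose with TNF-α and differed in what the drugs did. They read 5′ to 3′ on the strand of the gene, and capitals mark the matches. They stop before the first GENCODE 29 exon of the gene, so the last 39 bases of the CD274 window and the last 13 of the CD58 window are not printed. Distances below count back from the RefSeq start, just after the window, and not from the end of the printed stretch.
CD274, chr9:5450292-5450502, plus strand: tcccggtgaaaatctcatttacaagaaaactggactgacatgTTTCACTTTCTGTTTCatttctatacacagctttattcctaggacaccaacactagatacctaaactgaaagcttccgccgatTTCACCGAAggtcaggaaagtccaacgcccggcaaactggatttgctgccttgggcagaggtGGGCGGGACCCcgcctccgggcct
CD58, chr1:116571040-116571276, minus strand: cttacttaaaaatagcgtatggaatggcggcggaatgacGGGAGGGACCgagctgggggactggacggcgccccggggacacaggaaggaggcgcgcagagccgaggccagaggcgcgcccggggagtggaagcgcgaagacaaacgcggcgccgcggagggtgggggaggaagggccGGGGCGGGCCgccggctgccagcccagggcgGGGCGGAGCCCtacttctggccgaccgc
In CD274 the capitals are, from left to right, interferon-response core letters on the other strand beginning 208 bases before the start, GAS letters 125 bases before it and NF-κB letters 63 bases before it. A second run of NF-κB letters begins 20 bases before that start, in the bases not printed. In CD58 all 3 capital runs are NF-κB letters, beginning 211, 72 and 41 bases before the start. For CD83, which had the smallest p of the 8 genes with TNF-α, the second RefSeq start held 3 runs of NF-κB letters, beginning 135, 76 and 51 bases before it. These runs lie inside the GENCODE span of CD83, and that window met a GENCODE 29 exon of the gene 131 bases before the start.
CD83, chr6:14117637-14117647: GGGGGCGCCCC
CD83, chr6:14117696-14117707: GGGGAATCCCCC
CD83, chr6:14117721-14117731: GGGAAGTTCCC
The first CD83 start, chr6:14117006-14117255, held none of the 4 sets of letters, and neither did the windows of CD80 and CD48. CD44 held NF-κB letters 157 and 87 bases before its start. The second CD86 start held them 82 and 20 bases before it. The CD44 window began within a GENCODE exon of the gene, and the second CD86 window lay inside the span of its gene. The fixed NF-κB letters are all G or C, and the windows differed in their share of these bases. It was 83.2% at the second CD83 start, 72% for CD58, 62.4% for CD44, 54.8% for CD274 and 52% at the second CD86 start. Windows without a match held 56% (CD80), 43.2% (CD48), 34.8% (first CD83 start) and 34% (first CD86 start). The part of base content in the matches was not tested.

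**Figure D1:**
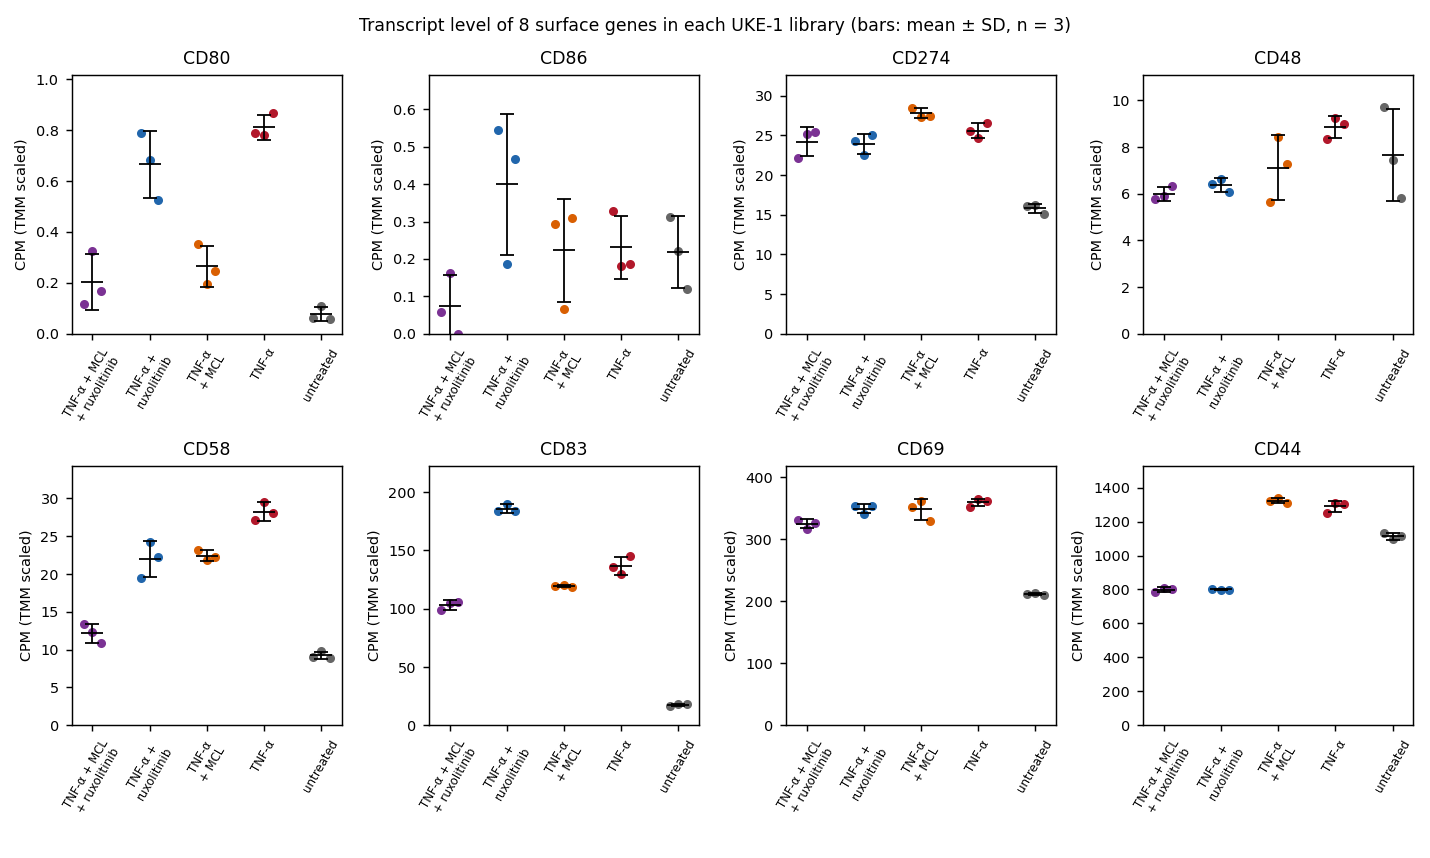
TMM-scaled CPM of the 8 genes in each library; points are libraries and bars the mean ± SD of the 3 libraries of a group. CD83, CD69 and CD274 stay above untreated cells in every TNF-α group, CD58 in the combination sits just above untreated cells, and CD44 is lower in both ruxolitinib groups than in all other libraries.

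CD80 passed the count filter only through the TNF-α and ruxolitinib libraries, in which it is high. It is thus left out of the counts of members that rose or fell and is described on its own. The tallies of recomputed values in the closing section on processing do include CD80. Of the other 6 genes tested, TNF-α alone raised 5 and lowered 0, where 14.1% of all tested genes rose and 12.5% fell. The 5 were CD83, CD58, CD69, CD274 and CD44, and CD48 did not pass. Of all genes that passed, 53% were higher with TMM scaling and 42.3% with library totals, while the split for these genes stayed at 5 higher and 0 lower. The median log2 change was 0.73 over the 6 genes and 0.00 over all tested genes. CD86 was too low to judge.

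CD80, a ligand of CD28 and CTLA4 at chr3:119524293-119559602, was close to the limit of detection. It had 2, 6 and 3 reads in the combination, 13, 11 and 9 with ruxolitinib, 6, 3 and 4 with MCL, 12, 13 and 14 with TNF-α alone, and 1, 2 and 1 in untreated cells. The libraries with TNF-α alone or with ruxolitinib lay above all libraries of the other groups. The level averaged 0.203 ± 0.110 CPM in the combination, 0.666 ± 0.132 with ruxolitinib, 0.265 ± 0.081 with MCL, 0.812 ± 0.049 with TNF-α alone and 0.0776 ± 0.029 in untreated cells. Since the filter kept CD80 for its high groups, it is described by ratios of summed reads, with 95% intervals that cover counting error only, and by edgeR on all genes with no filter. The ratio of TNF-α to untreated cells was 10.3 (3.73 to 39.8), with a log2 change of 3.23 and an edgeR adjusted p of 0.000169.

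Against TNF-α alone the CD80 ratio was 0.253 in the combination (0.117 to 0.503), with a log2 change of -1.93 and an edgeR adjusted p of 0.00793. It was 0.818 with ruxolitinib (0.498 to 1.33), with a log2 change of -0.27 (0.927). It was 0.330 with MCL (0.162 to 0.631), with a log2 change of -1.55 that did not pass (0.0741). The combination over ruxolitinib gave 0.309 (0.141 to 0.627), with a log2 change of -1.66 (0.0359). On the filtered table the p for MCL against TNF-α alone was 0.0201 after adjustment by edgeR, but that call was lost without MCL replicate 2 (-1.41, 0.0922), MCL replicate 3 (-1.52, 0.0692) or TNF-α replicate 3 (-1.52, 0.0654). The filtered call for the combination against ruxolitinib was lost without combination replicate 1 (-1.40, 0.0593). CD80 shares 798 exon bases with TIMMDC1 on the opposite strand, a gene with 14648 reads over all libraries against 100 for CD80, and without known strand use their reads cannot be told apart. TIMMDC1 differed by -0.03 on the log2 scale with TNF-α and by 0.19 with MCL. The part of shared reads in the CD80 result was not tested.

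CD86, the other ligand of CD28 and CTLA4 at chr3:122055366-122121139, did not pass the filter on low counts. It had 1, 3 and 0 reads in the combination, 9, 3 and 8 with ruxolitinib, 5, 1 and 5 with MCL, 5, 3 and 3 with TNF-α alone and 5, 4 and 2 in untreated cells. In read numbers every pair of groups overlapped or met at 3 reads. The summed reads gave a ratio of 1.06 for TNF-α over untreated cells, with a 95% counting interval of 0.417 to 2.70, so a 2-fold difference in either direction was not detectable at this depth. With no filter, the difference of the combination from ruxolitinib had an edgeR adjusted p of 0.0398, on 4 and 20 reads.

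CD274, which encodes PD-L1 and lies at chr9:5450503-5470566, rose with TNF-α and stayed up under every drug. It was at 22.2, 25.1 and 25.4 CPM in the combination, 24.4, 22.6 and 25.0 with ruxolitinib, 28.5, 27.4 and 27.5 with MCL, 25.5, 24.7 and 26.5 with TNF-α alone, and 16.1, 16.2 and 15.1 in untreated cells. No untreated library reached any library that had received TNF-α. The log2 change with TNF-α was 0.69 (SE 0.08, edgeR adjusted p = 1.83e-10), a 1.62-fold rise. Neither drug nor the combination changed it beyond the test. The log2 difference from TNF-α alone was -0.08 in the combination (95% interval -0.23 to 0.08), -0.09 with ruxolitinib (-0.25 to 0.06) and 0.12 with MCL (-0.03 to 0.27). The combination kept 86.2% ± 18.4 of the rise of the TNF-α libraries above untreated cells, ruxolitinib 83.6% ± 12.9 and MCL 123% ± 6.43. Here, and for CD58 and CD83 below, the SD of a kept share covers the scatter of the drug libraries only. The untreated and TNF-α means were taken as fixed, so their scatter is left out.

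CD274 was higher with MCL than with ruxolitinib by 0.21 on the log2 scale (edgeR adjusted p = 0.0305) and lower in the combination than with MCL by -0.20 (0.0313). Leaving out a library ended the call for MCL against ruxolitinib without MCL replicate 1 (0.19, edgeR adjusted p = 0.111), MCL replicate 2 (0.22, 0.0524), MCL replicate 3 (0.22, 0.0539), ruxolitinib replicate 1 (0.22, 0.0542) or ruxolitinib replicate 2 (0.17, 0.136). It ended the call for the combination against MCL without MCL replicate 1 (-0.18, 0.107), MCL replicate 3 (-0.21, 0.0509) or combination replicate 1 (-0.14, 0.208). That call was also lost with library totals (-0.15, 0.0976) and with no filter (-0.20, 0.0603).

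CD48, a ligand of CD244 at chr1:160678746-160711851, varied widely in untreated cells. It was at 5.79, 5.89 and 6.34 CPM in the combination, 6.42, 6.65 and 6.07 with ruxolitinib, 5.65, 8.41 and 7.28 with MCL, 8.34, 9.24 and 8.99 with TNF-α alone, and 9.71, 7.43 and 5.83 in untreated cells. The untreated libraries spanned the whole range of the TNF-α group. The log2 difference of TNF-α from untreated cells was 0.21 with a 95% interval of -0.08 to 0.51, so a change with TNF-α was not resolved. Set against TNF-α alone, CD48 fell in the combination by 0.56 on the log2 scale (edgeR adjusted p = 0.00104) and with ruxolitinib by 0.47 (0.0203), while MCL gave -0.32 (0.105).

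The CD48 call for ruxolitinib was lost without TNF-α replicate 2 (-0.44, edgeR adjusted p = 0.0892), TNF-α replicate 3 (-0.46, 0.0683), ruxolitinib replicate 1 (-0.47, 0.0578) or ruxolitinib replicate 3 (-0.43, 0.0769). The MCL difference passed without MCL replicate 2 (-0.45, 0.0418). Against untreated cells the combination gave -0.35 (0.0441), with overlapping libraries; that call was lost without untreated replicate 1 (-0.14, 0.517), untreated replicate 2 (-0.37, 0.0658), combination replicate 1 (-0.32, 0.111), combination replicate 2 (-0.33, 0.102) or combination replicate 3 (-0.39, 0.052), with library totals (-0.31, 0.0783) and with no filter (-0.35, 0.0542). CD48 shares 976 exon bases with the antisense gene AL121985.1, which had 81 reads in all against 1796 for CD48. AL121985.1 averaged 0.113 CPM in the combination, 0.404 with ruxolitinib, 0.223 with MCL, 0.668 with TNF-α alone and 0.232 in untreated cells. Both genes were highest with TNF-α alone and lowest in the combination, and the groups between stood in different orders; the part of AL121985.1 in the result was not tested.

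CD58 (LFA-3), the ligand of CD2 at chr1:116514535-116571039, rose with TNF-α and lost most of that rise under both drugs together. It was at 13.4, 12.3 and 10.8 CPM in the combination, 19.5, 24.2 and 22.3 with ruxolitinib, 23.2, 21.8 and 22.2 with MCL, 27.1, 29.6 and 28.1 with TNF-α alone, and 8.97, 9.82 and 8.92 in untreated cells. The groups formed 4 levels without overlap, since the ruxolitinib and MCL libraries shared a range. The log2 change with TNF-α was 1.61 (SE 0.10, edgeR adjusted p = 3.36e-22), a 3.06-fold rise. Against TNF-α alone CD58 fell by 0.36 with ruxolitinib (edgeR adjusted p = 0.00122) and by 0.33 with MCL (0.00195). The log2 difference between MCL and ruxolitinib was 0.03, with a 95% interval of -0.15 to 0.21. The combination lowered it by 1.22 (SE 0.09, edgeR adjusted p = 3.78e-18), by 0.85 more than ruxolitinib (8.18e-12) and by 0.88 more than MCL (4.62e-12). The combination kept 15.5% ± 6.66 of the TNF-α rise, ruxolitinib 67.0% ± 12.7 and MCL 69.3% ± 3.71. It still stood above untreated cells by 0.40 on the log2 scale (edgeR adjusted p = 0.000996).

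CD83, a surface protein known from mouse and human cells to keep MHC class II and CD86 at the surface by opposing the ligase MARCH1, lies at chr6:14117256-14136918 and had the clearest TNF-α response. It was at 98.7, 105.3 and 105.6 CPM in the combination, 184, 190.0 and 184 with ruxolitinib, 119, 120.0 and 119 with MCL, 136, 129 and 145 with TNF-α alone, and 16.6, 18.2 and 18.2 in untreated cells. No 2 groups overlapped. TNF-α raised it 7.74-fold, a log2 change of 2.95 (SE 0.05, edgeR adjusted p = 3.24e-49). The drugs moved it in opposite directions from there. Against TNF-α alone, ruxolitinib raised it by 0.44 on the log2 scale (edgeR adjusted p = 1.47e-13), whereas MCL lowered it by 0.20 (0.000171). With ruxolitinib it stood 10.5-fold above untreated cells, TNF-α response included (log2 change 3.39, edgeR adjusted p = 3.92e-53). With both drugs it fell by 0.41 against TNF-α alone (9.77e-13), by 0.85 against ruxolitinib (8.75e-27) and by 0.21 against MCL (4.48e-05). The combination kept 71.7% ± 3.27 of the TNF-α rise, ruxolitinib 141% ± 2.99 and MCL 85.3% ± 0.6.

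CD69, a C-type lectin-like antigen that holds lymphocytes in tissue by pulling S1PR1 from the surface, lies at chr12:9752486-9760901. It was at 332, 317 and 326 CPM in the combination, 353, 341 and 354 with ruxolitinib, 352, 362 and 330.3 with MCL, 352, 365 and 361 with TNF-α alone, and 211, 213 and 209.8 in untreated cells. All TNF-α groups lay well above untreated cells and close to each other. TNF-α raised it 1.70-fold (log2 change 0.76, SE 0.03, edgeR adjusted p = 7.69e-28). The log2 difference from TNF-α alone was -0.04 with ruxolitinib (95% interval -0.11 to 0.03) and -0.05 with MCL (-0.11 to 0.02). The combination lowered it by 0.15 against TNF-α alone (edgeR adjusted p = 0.000224), by 0.11 against ruxolitinib (0.00782) and by 0.10 against MCL (0.0141). With library totals in place of TMM these became -0.07 (0.0738), -0.05 (0.199) and -0.06 (0.172), so the 3 combination calls depend on the scaling. The call against ruxolitinib was also lost without combination replicate 2 (-0.09, 0.0575), and the call against MCL without that library (-0.08, 0.0899), MCL replicate 1 (-0.09, 0.0635) or MCL replicate 2 (-0.07, 0.116).

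CD44, the hyaluronan receptor at chr11:35138870-35232402, followed ruxolitinib and not MCL in its level. It was at 785, 810.1 and 803 CPM in the combination, 806, 799 and 796 with ruxolitinib, 1322, 1336 and 1307 with MCL, 1253, 1312 and 1304 with TNF-α alone, and 1133, 1095 and 1113 in untreated cells. The libraries with and without MCL shared a range in the presence of ruxolitinib and in its absence, and all ruxolitinib libraries lay below all others. TNF-α raised it by 0.21 on the log2 scale (SE 0.03, edgeR adjusted p = 2.05e-08). Ruxolitinib lowered it by 0.69 against TNF-α alone (2.33e-28) and by 0.48 against untreated cells (1.56e-21), so it stood below the level of unstimulated cells. The combination gave the same size of fall, 0.69 against TNF-α alone (edgeR adjusted p = 1.1e-29), and its difference from ruxolitinib was -0.00 with a 95% interval of -0.06 to 0.06. MCL alone gave 0.04 (-0.02 to 0.09), which passed with library totals (0.07, edgeR adjusted p = 0.0495). CD44-AS1 overlaps CD44 on the opposite strand by 84 exon bases and had 744 reads against 265390. It also fell, with a log2 change of -2.002 in the combination (edgeR adjusted p = 1.34e-10) and of -0.81 with ruxolitinib (0.00451), at 1.00 CPM in the combination, 2.31 with ruxolitinib and 4.04 with TNF-α alone.

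**Figure D2:**
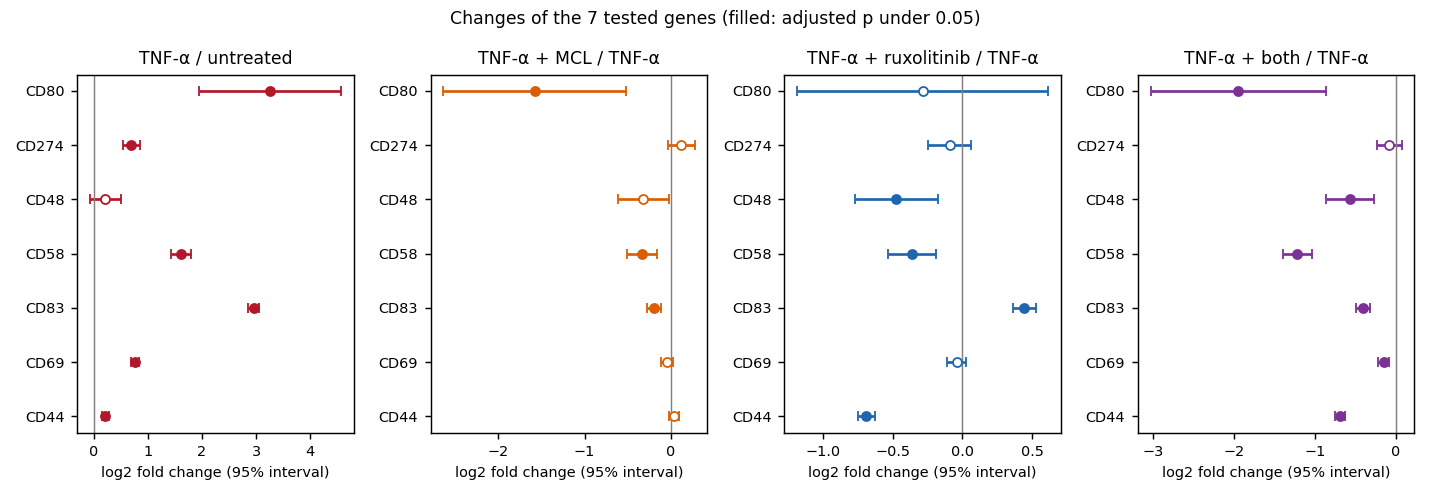
Log2 fold changes of the 7 tested genes with 95% intervals, for TNF-α over untreated cells and for each drug group over TNF-α alone; filled points have an adjusted p under 0.05 and each panel has its own axis. CD80 entered the test only through its TNF-α and ruxolitinib libraries. Ruxolitinib is the sole panel with changes on both sides of 0 that passed, CD83 at 0.44 and CD44 at -0.69.

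Counted without CD80, against TNF-α alone the combination lowered 5 of the 6 genes and raised 0, where 29.3% of all tested genes fell and 25.5% rose. Ruxolitinib lowered 3 and raised 1, where 10.6% fell and 5.15% rose. MCL lowered 2 and raised 0, where 15.1% fell and 10.9% rose. These 3 comparisons share the same TNF-α libraries. The shares of higher genes among all genes that passed depended on scaling, at 46.5% with TMM and 56.6% with library totals for the combination, 32.8% and 45.4% for ruxolitinib, and 41.8% and 53.7% for MCL. With library totals the 6 genes split into 4 lower and 0 higher in the combination, 3 lower and 1 higher with ruxolitinib, and 2 lower and 1 higher with MCL. Their median log2 change was -0.48 in the combination, -0.23 with ruxolitinib and -0.12 with MCL, beside -0.03, -0.01 and -0.02 over all tested genes. The gene among them that passed for no drug group against TNF-α alone was CD274.

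Against untreated cells, the combination held 4 of the 6 genes higher and 2 lower, where 28.3% of all tested genes rose and 29.1% fell. Scaled by library totals, 4 were higher and 1 was lower, and CD48 no longer passed. Ruxolitinib held 4 higher and 1 lower, where 17.8% rose and 19.0% fell, and MCL 5 higher and 0 lower, where 17.2% rose and 16.9% fell. These comparisons share the same untreated libraries. Those lower in the combination with TMM were CD44 and CD48. Against ruxolitinib the combination lowered 3 of the 6 genes and raised 0, where 26.8% of all tested genes fell and 24.8% rose, and 2 with library totals. Against MCL it lowered 5 and raised 0, where 22.0% fell and 19.6% rose, and 3 with library totals. MCL held 2 higher and 1 lower than ruxolitinib, where 14.3% were higher and 13.1% lower. CD44 was higher with MCL than with ruxolitinib by 0.72 on the log2 scale (edgeR adjusted p = 8.37e-30), and CD83 was lower by 0.64 (2.25e-20).

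Whether the drugs acted independently was tested as a non-additive term, the log2 change of the combination minus the sum of the log2 changes of each drug, all against TNF-α alone. It passed for 25.0% of all tested genes and for 2 of the 6 genes here, both negative. For CD83 it was -0.65 (SE 0.06, edgeR adjusted p = 5.65e-14). MCL lowered CD83 by 0.85 in the presence of ruxolitinib and by 0.20 in its absence. Put the other way, ruxolitinib changed CD83 by -0.21 in the presence of MCL and by 0.44 in its absence, a change of sign. For CD58 the term was -0.52 (SE 0.13, edgeR adjusted p = 0.00123), with MCL lowering it by 0.85 in the presence of ruxolitinib and by 0.33 in its absence. For CD44 it was -0.04 with a 95% interval of -0.12 to 0.05, for CD69 -0.06 (-0.16 to 0.04), for CD274 -0.10 (-0.32 to 0.11) and for CD48 0.23 (-0.19 to 0.66). For CD80 the interval of -1.57 to 1.39 was too wide to tell.

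**Figure D3:**
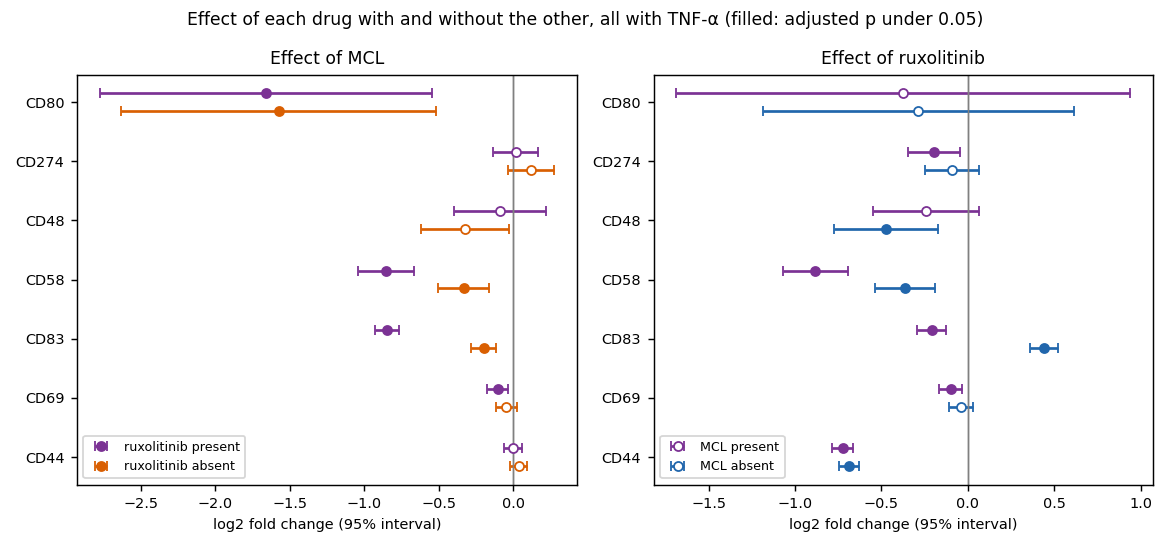
Log2 effect of MCL (left) and of ruxolitinib (right) on the 7 tested genes with 95% intervals, with the other drug present (purple) or absent, all in TNF-α stimulated cells; filled points have an adjusted p under 0.05. The points for CD83 under ruxolitinib lie on opposite sides of 0, at -0.21 and 0.44, and those for CD44 lie close together.

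Levels of different genes were compared as CPM per kb of exon, using the deposited gene lengths. In the combination the order was CD69 at 115 ± 2.6, CD44 at 79.9 ± 1.3, CD83 at 41.0 ± 1.6, CD58 at 6.83 ± 0.71, CD274 at 5.90 ± 0.44 and CD48 at 1.83 ± 0.09, and the libraries of CD58 and CD274 overlapped there. With ruxolitinib CD69 stood at 123 ± 2.4, CD44 at 80.0 ± 0.49 and CD83 at 73.9 ± 1.4. MCL gave CD44 at 132 ± 1.5, CD69 at 123 ± 5.8 and CD83 at 47.4 ± 0.28. With TNF-α alone CD44 at 129 ± 3.2 and CD69 at 127 ± 2.2 overlapped, followed by CD83 at 54.4 ± 3.1, CD58 at 15.8 ± 0.69, CD274 at 6.23 ± 0.23 and CD48 at 2.70 ± 0.14. In untreated cells CD44 led at 111 ± 1.9, before CD69 at 74.7 ± 0.65, CD83 at 7.02 ± 0.37, CD58 at 5.18 ± 0.28, CD274 at 3.85 ± 0.15 and CD48 at 2.34 ± 0.60. CD80 and CD86 were the lowest in all groups, at 0.254 ± 0.015 and 0.0674 ± 0.024 CPM per kb with TNF-α alone, and their libraries overlapped in the combination, with MCL and in untreated cells.

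**Figure D4:**
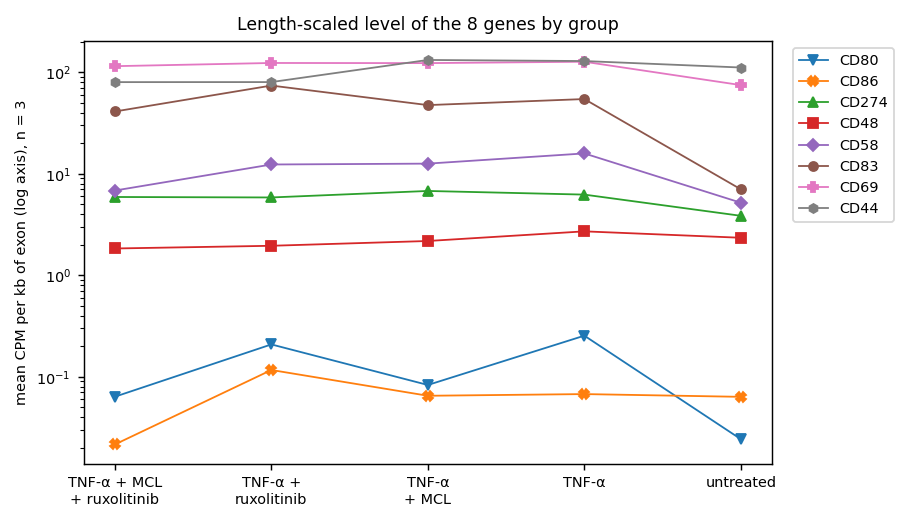
Mean CPM per kb of exon of the 8 genes in each group on a log axis, n = 3 libraries; lines join the groups of a gene to guide the eye. CD69 leads in the ruxolitinib groups and CD44 in untreated cells, and CD80 and CD86 lie below 1 throughout.

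The relatives of CD80 and CD274 in the B7 and CD28 families showed what else of this system the cells transcribed. Of 11 genes, 6 passed the filter, and PDCD1LG2, VTCN1, CD28, CTLA4 and ICOS did not. The combination raised 0 and lowered 4, ruxolitinib raised 0 and lowered 2, MCL raised 0 and lowered 3, and TNF-α alone raised 2 and lowered 1. The shares over all tested genes were 25.5% raised and 29.3% lowered in the combination, 5.15% and 10.6% with ruxolitinib, 10.9% and 15.1% with MCL, and 14.1% and 12.5% with TNF-α alone. The median log2 change of the 6 was -1.13 in the combination, -0.19 with ruxolitinib, -0.74 with MCL and -0.12 with TNF-α alone. PDCD1, BTLA and HHLA2 were near the count filter, with 6 to 15, 4 to 14 and 6 to 9 reads with TNF-α alone. In the combination they had 3 to 7, 11 to 12 and 6 to 13. Unlike CD80 they were kept, so these counts and medians still hold genes that can pass through their higher libraries. The 4 in the combination include PDCD1 (-1.23, edgeR adjusted p = 0.0436), a call lost with library totals (0.0584), no filter (0.0946), a replicate block (0.0502) and DESeq2 (0.0737). It was also lost without TNF-α replicate 1 (-1.09, 0.132), TNF-α replicate 3 (-0.99, 0.186), combination replicate 1 (-0.97, 0.164) or combination replicate 3 (-1.32, 0.0701). ICOSLG, the ligand of ICOS, averaged 1.11 ± 0.28 CPM in the combination, 9.34 ± 1.62 with ruxolitinib, 2.76 ± 0.02 with MCL, 8.98 ± 1.83 with TNF-α alone and 1.36 ± 0.34 in untreated cells. Its log2 change was -2.998 in the combination (edgeR adjusted p = 2.82e-19), 0.06 with ruxolitinib (0.871), -1.70 with MCL (2.4e-11) and 2.72 with TNF-α over untreated cells (1.94e-17). ICOSLG has a near-identical copy, FP565260.3, which may share its reads and changed by -2.83, 0.06, -1.43 and 2.24 in the same comparisons, so the level of either is uncertain. CD276 (B7-H3), a B7 relative without a settled receptor, averaged 19.0 ± 1.33 CPM in the combination, 29.6 ± 3.13 with ruxolitinib, 38.1 ± 2.54 with MCL, 57.3 ± 1.26 with TNF-α alone and 40.7 ± 2.36 in untreated cells. VSIR (VISTA), an inhibitory relative, fell with TNF-α by 0.30 (edgeR adjusted p = 3.82e-07) and again by 1.03 in the combination (1.22e-26), 0.53 with ruxolitinib (2.04e-13) and 0.82 with MCL (3.65e-21). Each of these 3 relatives fell with MCL, where CD274 gave 0.12.

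In the CD2 and SLAM family, to which CD48 and CD58 belong, 7 of 11 genes passed the filter, and CD2, the receptor of CD58, did not. The combination raised 2 and lowered 2 (25.5% and 29.3% of all tested genes), ruxolitinib raised 1 and lowered 1 (5.15% and 10.6%), MCL raised 0 and lowered 2 (10.9% and 15.1%), and TNF-α alone raised 3 and lowered 3 (14.1% and 12.5%). The median log2 change of the 7 was 0.12 in the combination, 0.12 with ruxolitinib, -0.04 with MCL and -0.22 with TNF-α alone. SLAMF7 was near the count filter, with 3 to 17 reads in the combination, 7 to 8 with ruxolitinib, 8 to 16 with MCL, 5 to 8 with TNF-α alone and 8 in each untreated library. It passed only through its higher MCL and combination libraries but was kept, and these medians hold it. Its log2 change with MCL was 0.76 (edgeR adjusted p = 0.31). Among the calls in this family, LY9 with TNF-α (-0.51, edgeR adjusted p = 0.0247) was lost without untreated replicate 2 (-0.47, 0.0887), TNF-α replicate 1 (-0.45, 0.101) or TNF-α replicate 2 (-0.52, 0.0565). SLAMF6 with ruxolitinib (0.29, 0.0175) was lost without TNF-α replicate 1 (0.26, 0.0947) or ruxolitinib replicate 3 (0.26, 0.0853). CD244 in the combination (0.13, 0.0258) was lost without TNF-α replicate 2 (0.12, 0.0894) or combination replicate 3 (0.11, 0.108), and was 0.21 with library totals. SLAMF8, a receptor of myeloid cells, averaged 7.01 ± 0.30 CPM in the combination, 17.8 ± 0.90 with ruxolitinib, 18.6 ± 1.47 with MCL, 33.9 ± 2.45 with TNF-α alone and 13.8 ± 1.31 in untreated cells. Its log2 change against TNF-α alone was -2.27 in the combination (edgeR adjusted p = 1.46e-29), -0.93 with ruxolitinib (2.35e-13) and -0.86 with MCL (1.33e-12). SLAMF1, a self-binding receptor, rose by 0.84 with TNF-α (0.000358) and fell by 1.01 in the combination (8.52e-06) and by 0.82 with MCL (0.000684). CD244, the receptor of CD48, rose with TNF-α by 0.27 (5.22e-05), and SLAMF6 fell by 0.61 (8.19e-08).

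Of 11 genes around CD44, 9 passed the filter. The 11 code for its ligands, linkers and sheddases, hyaluronan synthases (HAS1, HAS2 and HAS3) and another hyaluronan receptor (HMMR). The combination raised 2 and lowered 5 (25.5% and 29.3% of all tested genes), ruxolitinib raised 2 and lowered 2 (5.15% and 10.6%), MCL raised 3 and lowered 2 (10.9% and 15.1%), and TNF-α alone raised 5 and lowered 1 (14.1% and 12.5%). The median log2 change of the 9 was -0.11 in the combination, 0.03 with ruxolitinib, -0.05 with MCL and 0.14 with TNF-α alone. SRGN with TNF-α (0.14, edgeR adjusted p = 0.0459) was lost when any of the 6 libraries was left out (0.10 to 0.16), with both other scalings (0.0806 and 0.133), no filter (0.206) and DESeq2 (0.115). HAS3 with ruxolitinib (0.69, 0.0335) was lost with no filter (0.0565) and without TNF-α replicate 2 (0.58, 0.163), TNF-α replicate 3 (0.70, 0.0827), ruxolitinib replicate 1 (0.66, 0.0977) or ruxolitinib replicate 2 (0.62, 0.127). HAS3 with MCL (-0.87, 0.0124) was lost without TNF-α replicate 1 (-0.74, 0.0734) or MCL replicate 1 (-0.79, 0.0588). ADAM10 with ruxolitinib (-0.14, 0.00481) was lost without TNF-α replicate 1 (-0.11, 0.085) or ruxolitinib replicate 2 (-0.09, 0.132). HMMR with MCL (0.14, 0.0244) was lost without TNF-α replicate 1 (0.13, 0.069) or MCL replicate 2 (0.11, 0.122), and MSN in the combination (-0.11, 0.000968) with library totals (-0.03, 0.325). SPP1 (osteopontin), a CD44 ligand, rose by 0.97 with TNF-α (edgeR adjusted p = 2.47e-16) and further with ruxolitinib by 0.34 (0.000169) and with MCL by 0.36 (3.33e-05), while the combination gave 0.11 (0.206). MMP14, a membrane protease that can cleave CD44, fell by 0.50 in the combination (8.17e-17), 0.23 with ruxolitinib (1.19e-05) and 0.23 with MCL (4.87e-06). EZR (ezrin), which ties CD44 to actin, rose by 0.25 with TNF-α (5.47e-07). The sheddase ADAM10 fell by 0.24 with TNF-α (2.86e-07).

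Of 8 genes, for traffic or partners of CD69, CD83, CD86 and CD274 or for the lectin-like CLEC2B, CLEC2D and KLRB1, 6 passed the filter. S1PR1 and KLRB1 did not. The combination raised 2 and lowered 3 (25.5% and 29.3% of all tested genes), ruxolitinib raised 1 and lowered 1 (5.15% and 10.6%), MCL raised 1 and lowered 3 (10.9% and 15.1%), and TNF-α alone raised 2 and lowered 1 (14.1% and 12.5%). The median log2 change of the 6 was -0.16 in the combination, -0.07 with ruxolitinib, -0.09 with MCL and -0.01 with TNF-α alone. MARCH1 with MCL (-0.24, edgeR adjusted p = 0.0463) was lost when any of the 6 libraries was left out (-0.27 to -0.17), with both other scalings (0.0596 and 0.0914), no filter (0.13), only the groups compared (0.05) and DESeq2 (0.0873). MARCH8 with ruxolitinib (0.34, 0.0049) was lost without TNF-α replicate 1 (0.27, 0.0684), and CLEC2D in the combination (-0.36, 0.00452) without TNF-α replicate 2 (-0.28, 0.055). CMTM6, which protects PD-L1 protein from degradation, averaged 152 ± 7.45 CPM in the combination, 217.5 ± 4.52 with ruxolitinib, 180.1 ± 4.14 with MCL, 216 ± 9.16 with TNF-α alone and 156 ± 8.29 in untreated cells. It fell against TNF-α alone by 0.51 in the combination (edgeR adjusted p = 2.22e-17) and by 0.26 with MCL (2.44e-07), and gave 0.01 with ruxolitinib (0.907). CMTM4, its relative, fell by 0.28 with TNF-α (0.00239). CLEC2D, a lectin-like ligand of an NK-cell receptor, rose by 0.94 with TNF-α (1.02e-09) and fell by 0.51 with MCL (0.000273).

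**Figure D5:**
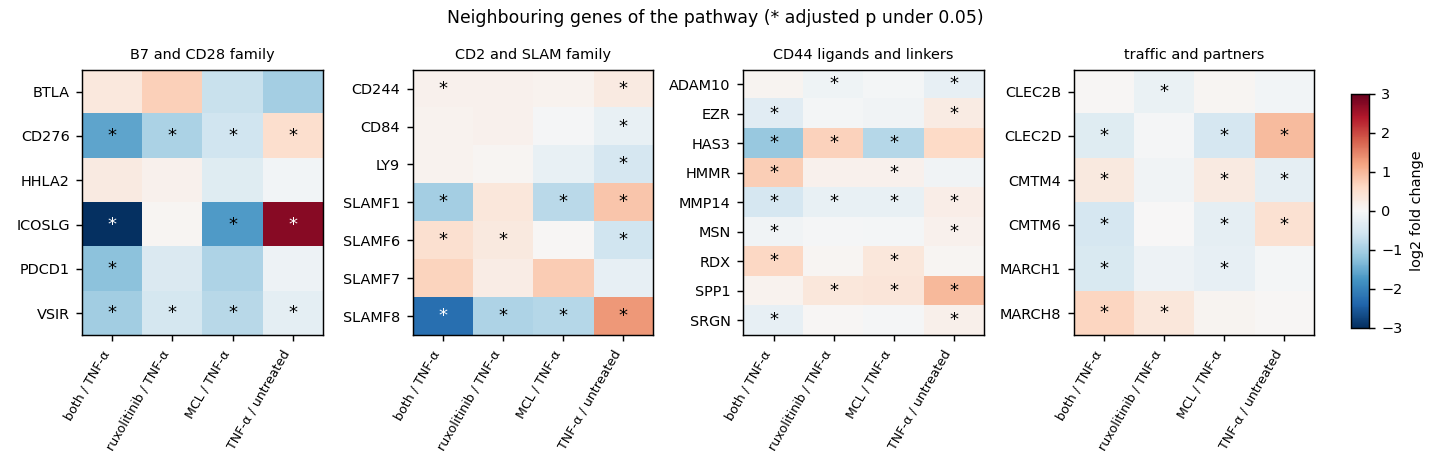
Log2 fold changes of the tested genes of 4 neighbouring lists in the combination, with ruxolitinib and with MCL, each against TNF-α alone, and with TNF-α against untreated cells; stars mark an adjusted p under 0.05. ICOSLG has the deepest colours, at -2.998 in the combination and 2.72 with TNF-α.

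Genes with the most similar profile were found by the Pearson correlation of log2 CPM over the 15 libraries, among 9926 protein-coding genes of at least 5 CPM on average (9927 for CD80). The 5 groups and their libraries are shared by all these points, so the values describe likeness across these groups alone. CD83 was closest to OPTN (0.996), NFKB2 (0.995) and RELB (0.994). OPTN averaged 81.6 CPM in the combination, 125 with ruxolitinib, 89.1 with MCL, 111 with TNF-α alone and 20.1 in untreated cells. NFKB2 averaged 291 CPM in the combination, 483 with ruxolitinib, 354 with MCL, 452 with TNF-α alone and 52.2 in untreated cells. CD58 was closest to TAP1 (0.988), RGS16 (0.986) and NAGK (0.981). TAP1, a peptide transporter for MHC class I, averaged 31.3 CPM in the combination, 54.7 with ruxolitinib, 56.5 with MCL, 72.0 with TNF-α alone and 27.5 in untreated cells. CD69 was closest to CXCL10 (0.993), TNFAIP3 (0.991) and BIRC3 (0.990), and CD274 to SLC16A9 (0.978), WWC2 (0.963) and RAB8B (0.957). CD44 was closest to SYNJ2 (0.977), IFIT5 (0.956) and TNFSF8 (0.948). SYNJ2 averaged 32.7 CPM in the combination, 34.5 with ruxolitinib, 67.2 with MCL, 61.2 with TNF-α alone and 57.7 in untreated cells. IFIT5, an interferon-induced gene, averaged 2.10 CPM in the combination, 3.87 with ruxolitinib, 20.8 with MCL, 34.0 with TNF-α alone and 11.1 in untreated cells. Unlike CD44, IFIT5 was thus lower with MCL than with TNF-α alone. CD80 was closest to TNKS1BP1 (0.954), FAS (0.953) and MTMR14 (0.952), at read numbers where its own profile is coarse, and CD48 reached no more than 0.833 (INO80).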

How the data were processed

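RNA-seq was done on total RNA of UKE-1 cells, 15 libraries in 5 groups of 3. The table the authors deposited holds unnormalized counts for 58735 genes. Named in the submitters' processing notes are DESeq2 1.16.1, featureCounts 1.5.0-p3 and HISAT2 2.0.5, and as builds mm10 and hg38, without their roles. Coordinates and symbols match GENCODE 29 on hg38 for 58735 genes. How strand and multiply matching reads were handled is not given in the sources used here. Columns headed as control were taken as untreated.

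Genes were filtered with edgeR's filterByExpr (minimum count 10, leaving 16146) and tested with edgeR 4.0.16 in R 4.3.3: TMM scaling, 1 coefficient per group, the robust quasi-likelihood F-test, p-values adjusted across the table by Benjamini-Hochberg. Standard errors are log2 changes over the root of F. The procedure was tested on simulated counts. Replicates differed by more than sampling noise, so none was treated as a copy. Counting intervals of summed reads cover counting error only, and intervals of log2 changes come from the model. Alternatives were other scalings, no filter or a minimum count of 30, DESeq2 1.42.0, only the groups compared, a replicate block and leaving out each library. All 8 genes are reported, a gene being too low to judge when filtered out or under 10 counts in its highest group mean, with up to 4 genes per neighbouring list by smallest p in TNF-α or in either drug alone, and 3 most similar genes. SLAMF8, MMP14 and others so named are also given for the combination. Counting the genes without CD80 was decided after its values were seen. The genes and lists were chosen with earlier results of these data known.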

Additional observations from a re-analysis of the deposited data

Results flagged for a closer look

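These results are set apart because the effect of MCL differed with and without ruxolitinib by a test of the difference itself, the edgeR non-additive term (adjusted over all tested genes). It passed for 25.0% of all tested genes and for 2 of the 6 members counted, so passing is not particular to them. The term was -0.65 for CD83 (adjusted p = 5.65e-14) and -0.52 for CD58 (0.00123), and it kept its sign and passed under every alternative run, at -0.70 to -0.62 for CD83 and -0.61 to -0.45 for CD58 when a library was left out. For CD83, ruxolitinib changed the level by -0.21 in the presence of MCL and by 0.44 in its absence.

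Among the neighbouring genes the term was negative for ICOSLG at -1.36 (0.000282), whose reads may be shared with the near-identical FP565260.3 (-1.46, 1.28e-06). It was -0.60 for SPP1 (1.79e-06), -0.48 for SLAMF8 (0.00566), -0.26 for CMTM6 (0.000297), -0.24 for SRGN (0.0161) and -0.19 for EZR (0.00813). It was positive for HMMR at 0.47 (3.91e-08), VSIR at 0.32 (0.000529), ADAM10 at 0.28 (3.1e-05), RDX at 0.22 (0.0283) and CLEC2B at 0.16 (0.0184). SRGN lost its call without MCL replicate 2 (-0.21, 0.053). CLEC2B lost it without TNF-α replicate 3 (0.14, 0.0771), MCL replicate 3 (0.11, 0.127), ruxolitinib replicate 2 (0.13, 0.085) or combination replicate 3 (0.12, 0.12). RDX lost it without TNF-α replicate 1 (0.20, 0.0816), TNF-α replicate 2 (0.22, 0.0573), MCL replicate 1 (0.18, 0.101), MCL replicate 2 (0.19, 0.0872), ruxolitinib replicate 2 (0.18, 0.105) or combination replicate 3 (0.16, 0.13). The RDX call was also lost with DESeq2 (0.22, 0.0537). No explanation was tested.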

How the results depend on the processing

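Of 1023 recomputed values of the members, CD80 included, 961 kept their direction and side of the threshold, 36 no longer passed, 3 newly passed and 23 changed sign, none of which had passed. Neighbouring genes were recomputed as an alternative added after seeing the data, in fewer comparisons and only where they had passed in the main fit. None could thus newly pass, and their shares cannot be set against those of the members. Of 1013 such values 951 kept their direction and side and 62 no longer passed. Members called for the combination against MCL, none of them CD80, numbered 5, but 3 with library totals and 3 to 5 when a library was left out. CD44 in the combination against ruxolitinib changed sign to 0.0074 with DESeq2's size factors, 0.007441 with DESeq2, 0.006029 with no filter, 0.0521 with library totals and 0.002031 with only the groups compared, and CD69 for MCL against ruxolitinib to 0.005845 with library totals and 0.00502 with no filter. Leaving out a library gave -0.0101 to 0.0122 for that CD44 difference, -0.034 to 0.0329 for that CD69 difference, -0.0192 to 0.0754 for CD274 in the combination against ruxolitinib, -0.0503 to 0.107 for CD58 with MCL against ruxolitinib, -0.27 to 0.10 for CD48 with MCL against untreated cells and -0.60 to 0.17 for the non-additive term of CD80. Cause was not tested. CD80 was removed at a minimum count of 30 and its call for MCL was lost with no filter (-1.55, adjusted p = 0.0741). With DESeq2 the CD274 calls between drug groups were lost (0.0534 and 0.0664), as was that of CD48 in the combination against untreated cells (0.0784). Deviations of same-numbered libraries from their group means correlated at -0.10 to 0.13 (30 pairs, median 0.0174). Differently numbered ones gave -0.228 to 0.122 (60 pairs, median -0.0131). Of 15 libraries 8 were closest to their own number, so a weak pairing is not settled. The replicate block left all member counts, here taken with CD80, as they were. Depth limits CD80 and CD86 most.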
